A study of Homo sapiens with 4 samples.

Results

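Epithelial identity transcription factors are DNA-binding proteins that switch on the genes of junctions, polarity and secretion in lining tissues and hold mesenchymal genes down. Members of 4 families make up the group described here. ELF3 and EHF are ETS factors restricted to epithelia, KLF5 is a zinc finger factor of proliferating epithelium, GRHL1 and GRHL2 are grainyhead factors of the epithelial barrier, and OVOL1 and OVOL2 are zinc finger repressors, OVOL2 being known to repress ZEB1. In the lung, TGF-β can drive carcinoma cells through an epithelial-mesenchymal transition, in which ZEB and SNAIL factors bind the E-boxes of epithelial promoters and these programmes oppose each other. The 7 genes were chosen by symbol, each matched a single row, and together they are 7 of 57820 genes listed in the count files.

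The TD line gave 2 libraries and parental A549 the other 2. TD cells are A549 cells held on TGF-β at 2 ng/ml, given again every 3 days and labelled mesenchymal-like. Parental A549 is an established human lung adenocarcinoma cell line, labelled epithelial in morphology, and the labels describe no TGF-β for it. Both lines descend from A549 and grew in the same medium with 10% serum, and TD is a single line, so the comparison describes that line. No label states whether a group's libraries came from separate cultures, so p-values measure only how much these libraries vary, which may be technical.

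Gene counts per library ranged from 26729278 to 44133836. Pseudogenes took 1.11% of the gene counts in TD replicate 1 and 0.373% in TD replicate 2, against 1.13% and 1.15% in A549 replicates 1 and 2, so TD replicate 2 stands apart in that class. Of the 5 carcinoma epithelium markers, all 5 were lower in TD, EPCAM and KRT19 having reached the expression filter through A549 alone, and their summed level was 1727 and 2068 CPM (counts over the library's TMM-scaled total) in TD and 15298 and 16099 CPM in A549. KRT8 and KRT18 made up most of that sum in TD, at a mean of 1355 and 539 CPM. Blood markers summed to 1.89 to 3.27 CPM over all libraries. Most of that was ITGAM, at a mean of 1.77 CPM in TD and 2.38 CPM in A549, which was not called. CD14 was called lower in TD (adjusted p = 0.049 by edgeR), and CD3E had 0 counts in each library. Among endothelial markers, PECAM1 matched no row by symbol, and the other 3, CDH5, VWF and CLDN5, summed to 0.0983 to 0.431 CPM. Of 4 fibroblast markers, COL1A1 was called higher in TD, at a mean of 278 CPM against 3.78 CPM in A549, and LUM was called lower. DCN had 0 counts in both TD libraries and 1 in each A549 library, and PDGFRA had 4 and 3 in TD and 0 and 1 in A549.

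In TD cells, 5 of the 7 factors were lower than in parental cells, and 0 were higher. The 5 were ELF3, EHF, KLF5, GRHL1 and OVOL2. GRHL2 and OVOL1 could not be tested, since their RNA was at the edge of detection in parental cells already. Calls are those of the quasi-likelihood test of edgeR at a Benjamini-Hochberg adjusted p below 0.05 over 17785 tested genes. Over all tested genes, 21.4% were called lower in TD and 21.6% higher, 43.0% in all. OVOL2 reached the expression filter through A549 alone, so the filter fixed the direction of its change. In bulk RNA, fewer cells with a transcript and less of it per cell cannot be told apart.

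**Figure D1:**
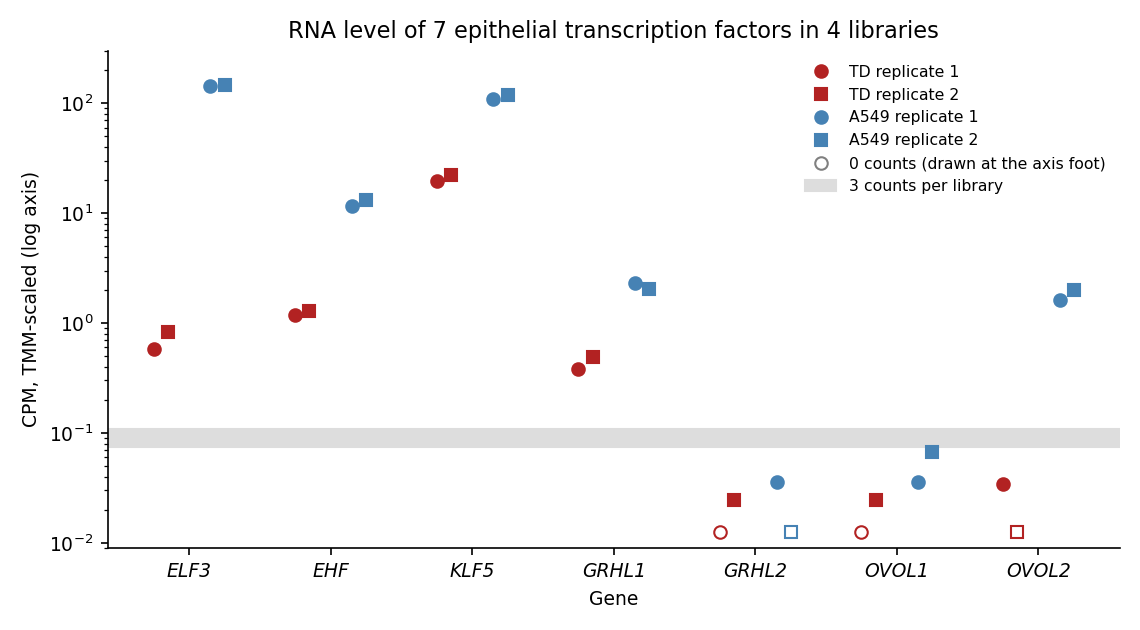
Level of each factor in each library in CPM on a log axis, TD in red left of A549 in blue, circles for replicate 1 and squares for replicate 2, open symbols for 0 counts; the grey band is the level of 3 counts in a library (0.0737 to 0.108 CPM). The TD and A549 points stand apart for ELF3, EHF, KLF5, GRHL1 and OVOL2, while GRHL2 and OVOL1 lie under the band in every library.

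Stretches of promoter show where the ETS members start. They run from 250 bases before to 50 bases after the transcript start in RefSeq (build GRCh38.p14), which is another build than that of the count files, and were matched by symbol. Entries were found for 4 of the 7 genes, ELF3, EHF, KLF5 and GRHL1. Capitals mark the E-box CAGGTG, the site that ZEB and SNAIL factors are known to bind, which reads CACCTG when it lies on the other strand.
ELF3, chr1:202010337-202010636, plus strand: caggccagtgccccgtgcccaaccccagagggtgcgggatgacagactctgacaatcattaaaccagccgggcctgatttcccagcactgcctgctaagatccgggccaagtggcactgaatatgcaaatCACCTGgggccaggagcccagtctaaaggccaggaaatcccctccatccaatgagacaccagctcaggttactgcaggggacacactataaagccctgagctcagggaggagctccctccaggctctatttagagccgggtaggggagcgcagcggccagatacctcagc
EHF, chr11:34624007-34624306, plus strand: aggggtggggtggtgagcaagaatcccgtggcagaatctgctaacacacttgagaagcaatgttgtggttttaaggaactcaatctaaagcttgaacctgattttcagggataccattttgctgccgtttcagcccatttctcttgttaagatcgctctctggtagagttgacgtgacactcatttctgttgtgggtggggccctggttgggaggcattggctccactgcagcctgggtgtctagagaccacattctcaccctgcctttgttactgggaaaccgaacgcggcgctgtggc
The ELF3 promoter held 1 such E-box, starting 120 bases before the transcript start, and those of EHF, KLF5 and GRHL1 held 0. Both strands were searched, and 20.6% of 27305 promoters of this length held at least 1. The grainyhead palindrome AACCGGTT was in 0 of the 4, against 0.117% of all promoters, and the ETS core GGAA was in each of the 4, against 95.5%. These windows differed in base composition. GRHL1 had 79.7% G and C and 52 CG dinucleotides, while ELF3 had 59.0% and 7, EHF 51.3% and 8, and KLF5 40.7% and 4, beside medians of 58.3% and 14 over all promoters. A match describes the letters in this window and is no evidence of binding. A single start was taken per gene. That of KLF5 may belong to an upstream isoform, so its window may not show its main promoter.

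ELF3, which drives secretory and barrier genes in epithelia, had the largest fitted drop of the 5, with an interval that overlaps that of OVOL2. It had 17 and 34 counts in TD, against 4030 and 4347 in A549. On the CPM scale that was 0.585 and 0.835 in TD and 145 and 146 in A549, so the groups lay far apart. The log2 change was -7.64 (SE 0.16, 95% interval -8.04 to -7.24, adjusted p = 3.08e-05 by edgeR), and the TD mean was 0.488% of the A549 mean. Ranked from the deepest drop, ELF3 was number 90 of the 17785 tested genes. By level per kilobase of exon, 33.9% and 35.9% of protein-coding genes lay below ELF3 in the TD libraries, against 90.1% and 90.2% in the A549 libraries.

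The antisense gene ELF3-AS1, which overlaps or adjoins ELF3, had 13 and 20 counts in TD and 53 and 51 in A549. It was lower by a log2 change of -1.93 (SE 0.29, adjusted p = 0.00586), with no call once A549 replicate 1 (adjusted p = 0.0639) or 2 (0.0531) was left out. For every 100 counts of ELF3 there were 76.5 and 58.8 counts of ELF3-AS1 in TD, against 1.32 and 1.17 in A549. The strand setting of the counting is not given in the sources used here, so reads of the 2 genes may not be fully separated, which bears most on the few ELF3 counts in TD.

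EHF, the second epithelium-restricted ETS factor, had 34 and 52 counts in TD, against 323 and 392 in A549. Its level was 1.17 and 1.28 CPM in TD and 11.6 and 13.2 CPM in A549, with no overlap. The log2 change was -3.33 (SE 0.16, 95% interval -3.75 to -2.91, adjusted p = 0.000178 by edgeR). That interval does not meet the one of ELF3, and the TD level of EHF stayed at 9.88% of the parental mean.

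KLF5, which promotes growth and survival of basal and gut epithelium, kept a larger part of its RNA than ELF3 and EHF. It had 566 and 911 counts in TD, against 3047 and 3500 in A549. The level was 19.5 and 22.4 CPM in TD and 109 and 118 CPM in A549. The log2 change was -2.44 (SE 0.10, 95% interval -2.71 to -2.17, adjusted p = 0.000121 by edgeR), and the TD mean was 18.4% of the A549 mean. KLF5 was the member with the highest level per kilobase of exon in each library of either line. In TD, 70.0% and 71.3% of protein-coding genes lay below it, against 93.0% and 93.5% in A549.

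GRHL1, a grainyhead factor known for its part in desmosome gene expression in mouse epidermis, was present at low level. It had 11 and 20 counts in TD, against 64 and 60 in A549, which is 0.379 and 0.491 CPM in TD and 2.30 and 2.02 CPM in A549. The groups did not overlap. The log2 change was -2.29 (SE 0.30, 95% interval -3.07 to -1.51, adjusted p = 0.00399 by edgeR), an interval that meets the one of KLF5.

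GRHL2, the family member known for holding CDH1 expression and the epithelial state in breast and airway cells, had 0 and 1 counts in TD, and 1 and 0 in A549. Each library thus lay under the limit that 3 counts set, at most 0.108 CPM. The ratio by counts was 0.825 (95% exact interval 0.0105 to 64.8), so no difference was detectable at this depth in either direction.

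OVOL2 had 1 and 0 counts in TD, against 45 and 59 in A549. Its level was 0.0344 CPM in the TD library with the count and 1.61 and 1.99 CPM in A549. By counts it was 126-fold lower in TD (95% exact interval 22.1 to 5024), and the fitted log2 change was -6.60 (SE 0.77, 95% interval -8.59 to -4.62, adjusted p = 0.00271 by edgeR). Leaving out A549 replicate 2 ended the call (adjusted p = 0.0518). With pseudogenes left out as well it was present (adjusted p = 0.000456), a setting chosen after seeing the data. OVOL1, its paralog, had 0 and 1 counts in TD and 1 and 2 in A549, too few for a test, with a ratio of 0.275 by counts (95% exact interval 0.00524 to 3.43). OVOL1-AS1, its antisense gene, had 1 and 0 counts in TD and 0 in both A549 libraries. OVOL3, the remaining OVO-like gene, had 0.516 and 0.246 CPM in TD and 0.359 and 0.269 CPM in A549 and was not called (adjusted p = 0.756).

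Per kilobase of exon, the order of the members in TD was KLF5, EHF, ELF3 and GRHL1, followed by the 3 with at most 1 count per library. In A549 it was KLF5, ELF3, EHF, OVOL2 and GRHL1, followed by OVOL1 and GRHL2. KLF5 and ELF3 had close levels in A549, 28.1 and 30.3 CPM per kilobase for KLF5 and 20.1 and 20.4 for ELF3. The ratio of KLF5 to ELF3 per kilobase was 61.5 and 49.5 in the TD libraries and 1.40 and 1.49 in the A549 libraries. Neighbours in the order did not overlap in their 2 values, except among the genes at the edge of detection. With the longest coding transcript as the length, ELF3 and GRHL1 overlapped in TD, at 0.117 and 0.167 CPM per kilobase for ELF3 and 0.106 and 0.138 for GRHL1.

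Other ETS genes went both ways. Of 26 others in the family, 19 were tested, of which 3 fell and 6 rose, beside 21.4% lower and 21.6% higher over all tested genes. The median log2 change was 0.08, beside -0.04 over all tested genes. Of the 19, 3 reached the filter through a single group, SPDEF and ETV7 through A549 and ERG through TD, so the filter fixed the direction of these 3 calls. SPDEF, an epithelial ETS factor of secretory cells, fell to 0.275 and 0.295 CPM in TD, against 26.9 and 26.4 CPM in A549 (log2 change -6.52, SE 0.13, adjusted p = 3.08e-05). ETV7 had 0 counts in TD and 35 over both A549 libraries, at least 14.1-fold lower with 3 counts over the group in place of 0. Its call, and that of ETV4 (log2 change -0.45, adjusted p = 0.0435), did not hold without either A549 library, which left 1 faller. By DESeq2, ETV4 was not called (adjusted p = 0.0666). ELF5, the third of the epithelium-restricted ELF genes, had 0 counts in TD and 0 and 1 in A549. On the other side, ELK3 rose to 284 and 309 CPM in TD, against 40.6 and 42.5 CPM in A549, and ETS1 to 71.7 and 71.2 CPM in TD, against 19.1 and 20.3 CPM in A549. Both are ETS factors known from endothelial and mesenchymal cells. ERG rose to 0.688 and 0.713 CPM in TD, against 0.0718 and 0.0337 CPM in A549, with no call once A549 replicate 1 (adjusted p = 0.0565) or 2 (0.073) was left out.

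These changes altered which ETS genes carried the family's RNA. ELF3 made up 0.0365% and 0.0457% of the summed ETS level per kilobase in TD and 11.6% and 12.0% in A549, moving to ranks 20 and 19 of 28 in TD, against rank 2 in both A549 libraries. EHF made up 0.120% and 0.115% in TD and 1.52% and 1.77% in A549. ELK3 held the first rank in TD with 27.4% and 26.2%, while its share in A549 was 5.02% and 5.38%.

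Among 17 other Kruppel-like factors, 15 were found and 11 tested, of which 3 fell and 5 rose (median log2 change 0.04). The shares over all tested genes were 21.4% lower and 21.6% higher. KLF4, a factor of differentiated epithelium, fell to 3.61 and 4.45 CPM in TD, against 13.1 and 13.1 CPM in A549. KLF9 (-1.03) and KLF13 (-0.46) fell as well, and neither call held without A549 replicate 2 (adjusted p = 0.0648 and 0.0601), which left 1 faller. KLF9 was also not called without A549 replicate 1 (adjusted p = 0.0564). KLF7 rose to 115 and 122 CPM in TD, against 14.5 and 15.4 CPM in A549, KLF12 by a log2 change of 2.34 and KLF11 by 2.06. The share of KLF5 in the family's level per kilobase was 6.01% and 6.17% in TD and 28.8% and 29.8% in A549, which placed it at rank 7 of 16 in both TD libraries and rank 1 in both A549 libraries.

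All 4 other grainyhead and CP2 genes were tested. GRHL3, the third grainyhead factor, had 1 and 0 counts in TD, against 20 and 26 in A549 (log2 change -5.43, SE 0.89, adjusted p = 0.00806), with no call once A549 replicate 1 (adjusted p = 0.0854) or 2 (0.101) was left out, and it reached the filter through A549 alone. TFCP2L1, a CP2 factor of ducts, fell to 4.47 and 5.73 CPM in TD, against 11.8 and 10.5 CPM in A549 (log2 change -1.13, adjusted p = 0.00632). The ubiquitous CP2 gene TFCP2 was not called, at 47.7 and 48.9 CPM in TD and 48.6 and 53.8 CPM in A549. UBP1, the other one, rose slightly (log2 change 0.27, adjusted p = 0.0313), a call lost with library totals as the scaling (adjusted p = 0.127) and without either A549 library (0.131 and 0.153).

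**Figure D2:**
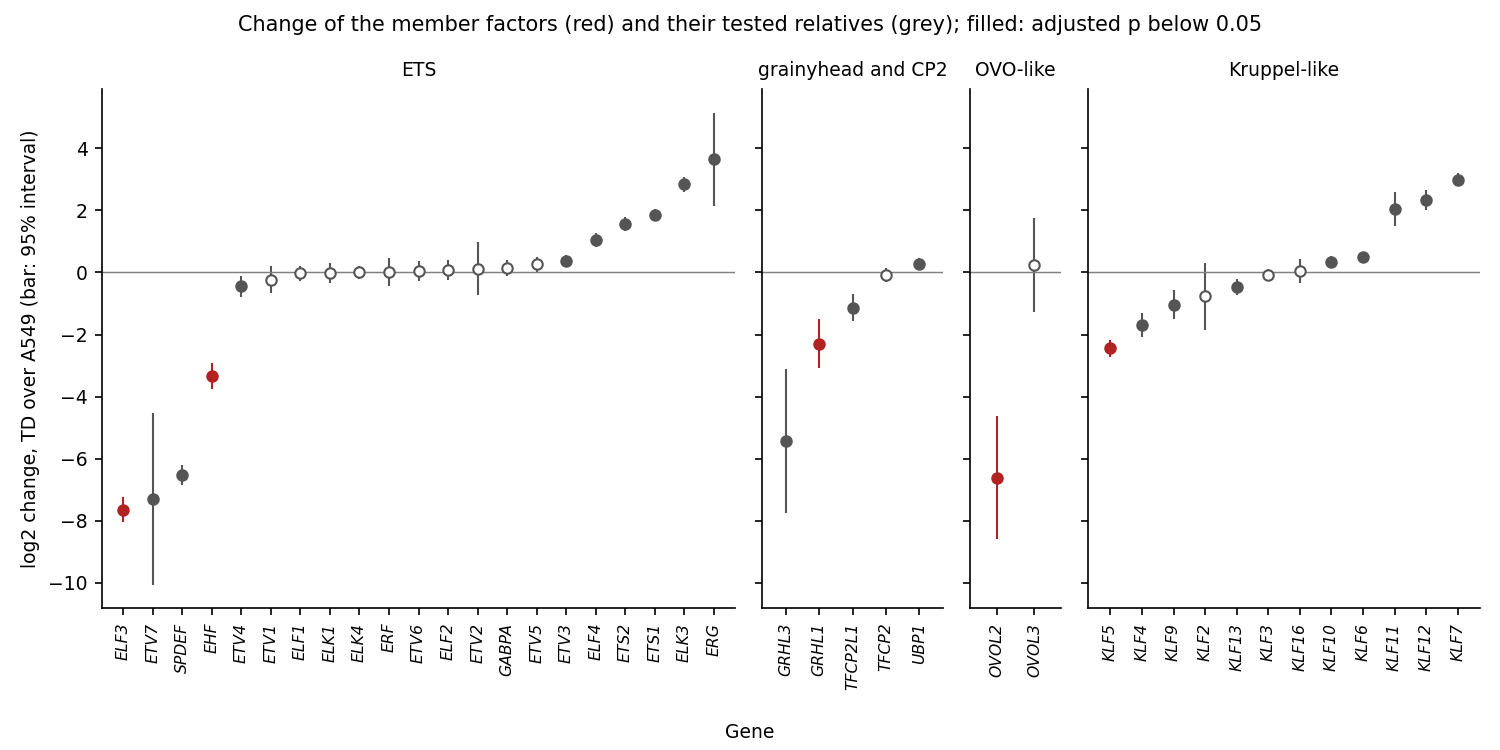
Fitted log2 change of TD over A549 for the tested members (red) and tested relatives (grey) in 4 families, with 95% intervals; filled points have an adjusted p below 0.05. ELF3, KLF5 and OVOL2 lie lowest in their panels, and ETS genes from ELK3 to ETS2 and Kruppel-like genes from KLF11 to KLF7 lie above 0; the fitted value of ETV7, with 0 counts in TD, depends on the prior count.

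**Figure D3:**
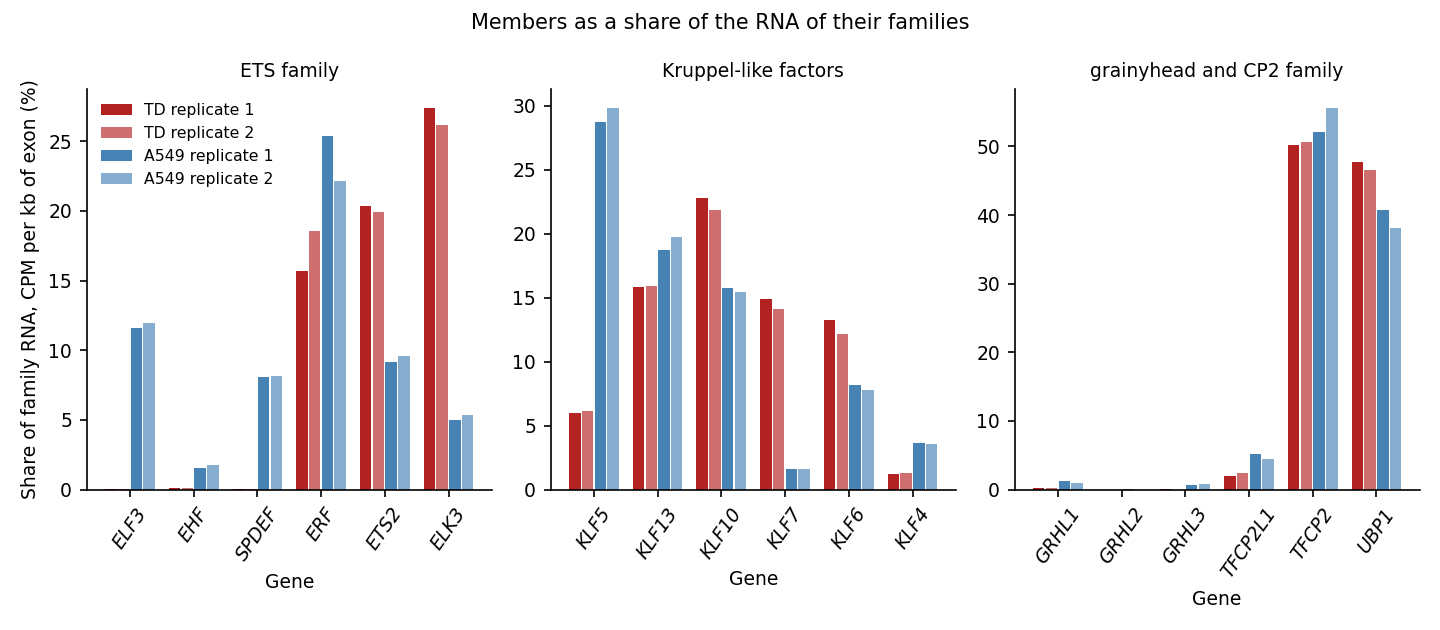
Share of the summed level per kilobase of exon in 3 families, in percent, for selected genes chosen after their values were seen, TD bars (red) left of A549 bars (blue), 1 bar per library. ELF3 has no visible bar in TD (0.0365% and 0.0457%) beside 11.6% and 12.0% in A549, and KLF5 is the tallest Kruppel-like bar in A549 and not in TD.

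Other transcription factors of epithelia were mostly lower in TD. Of 13 tested, 9 fell and 2 rose, beside 21.4% lower and 21.6% higher over all tested genes. Their median log2 change was -1.35, beside -0.04 over all tested genes, and 3 of the 13 reached the filter through a single group. ID2, an inhibitor of basic helix-loop-helix factors, fell by 4.40 on the log2 scale. TFAP2C, an AP-2 factor, fell to 0.516 and 0.541 CPM in TD, against 7.36 and 7.07 CPM in A549. SOX9 rose to 40.6 and 44.5 CPM in TD, against 18.4 and 18.5 CPM in A549. TP63, the basal cell factor, rose to 3.55 and 3.37 CPM in TD, against 0.323 and 0.303 CPM in A549. It reached the filter through TD alone, so the filter fixed its direction.

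Epithelial genes that have been linked with these factors were lower for the most part. Of 40 such genes, 35 were tested, of which 27 fell and 3 rose, beside 21.4% lower and 21.6% higher over all tested genes. Their median log2 change was -2.69, and 11 of the 35 reached the filter through a single group. EPCAM, MAL2, SPINT1 and ESRP1 were among the 11, through A549 alone, so the filter fixed their direction. EPCAM fell to 0.103 and 0.197 CPM in TD, against 148 and 153 CPM in A549. MAL2, a protein of apical transport, had 0 and 1 counts in TD, against 333 and 396 in A549. SPINT1, a serine protease inhibitor, had 0 counts in TD and 93 over both A549 libraries, at least 37.6-fold lower, with no call once A549 replicate 1 was left out (adjusted p = 0.0536). CDH1, which grainyhead factors are known to activate, stood at 2.86 and 3.05 CPM in TD and 188 and 191 CPM in A549 (log2 change -6.00). ESRP1, an epithelial splicing regulator, stood at 0.172 CPM in both TD libraries and at 3.48 and 4.31 CPM in A549 (log2 change -4.47, SE 0.29, adjusted p = 0.000446).

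DSG2 and PRSS8 were among the 3 that rose. PRSS8 reached the filter through TD alone, so the filter fixed its direction. DSG2, a desmosomal cadherin, was at 278 and 275 CPM in TD, against 179 and 184 CPM in A549. PRSS8, a membrane protease, had a log2 change of 1.93 at low level, and its call was lost without either A549 library (adjusted p = 0.18 and 0.152) and by DESeq2 (0.178). In this list, 5 genes could not be tested because their RNA was low in both lines, and those named here were picked out after their values were seen. CLDN3 and CLDN4 had 0 counts in all 4 libraries. RAB25 had 1 count in each TD library and 1 and 0 in A549, and ESRP2 had 6 and 5 in TD and 6 and 3 in A549. The claudins CLDN3 and CLDN4 and the small GTPase RAB25 are known as GRHL2 targets, and GRHL2 itself was at the edge of detection in both lines. CDH1, also known to be activated by grainyhead factors, stood at 188 and 191 CPM in A549. A link between GRHL2 and the level of any of these genes was not tested.

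**Figure D4:**
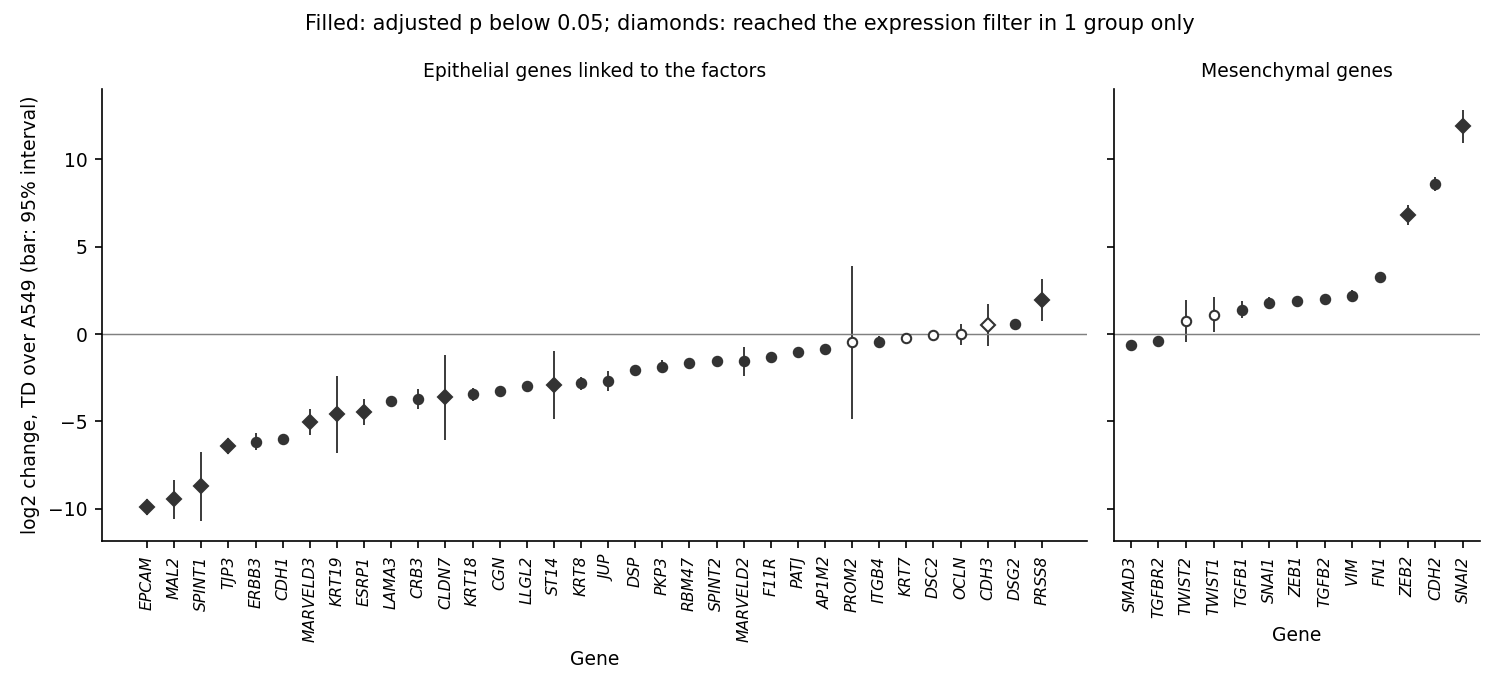
Fitted log2 change of TD over A549 with 95% intervals for 34 of the 35 tested epithelial genes and the 13 mesenchymal genes; filled symbols have an adjusted p below 0.05 and diamonds reached the expression filter in a single group. Points run from EPCAM at -9.87 to PRSS8 at 1.93 among the epithelial genes drawn, and SMAD3 and TGFBR2 are the called points below 0 among mesenchymal genes; fitted values of SPINT1 and SNAI2, with 0 counts in 1 group, depend on the prior count.

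Genes that OVOL and grainyhead factors are reported to repress, together with the TGF-β arm, were mostly higher. Of 13 tested, 9 rose and 2 fell (median log2 change 1.89), beside 21.6% higher and 21.4% lower over all tested genes. The 2 genes ZEB2 and SNAI2 reached the filter through TD alone, so the filter fixed their direction. ZEB1, the known OVOL2 target, stood at 51.9 and 56.1 CPM in TD and 14.6 CPM in both A549 libraries. ZEB2 stood at 12.7 and 11.3 CPM in TD and 0.108 and 0.101 CPM in A549, and SNAI1 at 31.5 and 39.2 CPM in TD and 10.2 CPM in both A549 libraries. SNAI2 had 1044 counts over the TD libraries and 0 in A549, at least 287-fold higher, and CDH2 had a log2 change of 8.58. SMAD3 fell by 0.64 on the log2 scale and TGFBR2, a receptor chain that ELF3 is known to activate, by 0.42. Leaving out A549 replicate 2 ended the TGFBR2 call (adjusted p = 0.0611), with 1 faller remaining.

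Growth genes reported as KLF5 targets were mostly higher in TD. Whether KLF5 acts on them in these cells was not tested. Of 7 tested, 2 fell and 5 rose, beside 21.4% lower and 21.6% higher over all tested genes. Their median log2 change was 0.65, and 1 of the 7 reached the filter through a single group. That gene was FGFBP1, a carrier of fibroblast growth factors, with 0 and 2 counts in TD, against 142 and 153 in A549, so its direction was fixed by the filter. CDK1 fell by 0.73 on the log2 scale. EGFR rose to 388 and 397 CPM in TD, against 203 and 213 CPM in A549, BIRC5 by a log2 change of 0.86 and PDGFA, which encodes a growth factor chain, by 0.82.

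The genes next to the members on the chromosome, taken by position from GENCODE 29, changed in both directions. Of 14 protein-coding neighbours, 13 were tested, of which 4 fell and 5 rose, beside the 43.0% called over all tested genes. KLF12, next to KLF5, and KLF11, next to GRHL1, were among the risers named above. RNPEP, next to ELF3, was at 60.0 and 69.4 CPM in TD and 93.8 and 98.7 CPM in A549 (log2 change -0.57, adjusted p = 0.00927). GPR37L1, on the other side of ELF3, had 3 counts in each TD library and 19 and 20 in A549 and reached the filter through A549 alone, with no call once A549 replicate 1 (adjusted p = 0.107) or 2 (0.106) was left out. APIP, next to EHF, SNX5, next to OVOL2, and CFL1, next to OVOL1, likewise were not called once either A549 library was left out. MGME1, next to OVOL2, rose to 77.4 and 78.1 CPM in TD, against 48.2 and 52.4 CPM in A549.

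Likeness of pattern was measured as the distance between centred log2(CPM + 0.5) values over the 4 libraries, among 11973 protein-coding genes with a mean of at least 1 CPM. The nearest to ELF3 were VAMP8 (distance 0.0877) and CP (0.126), which encodes ceruloplasmin. VAMP8, a vesicle fusion protein, stood at 0.103 and 0.246 CPM in TD and 81.3 and 87.5 CPM in A549. The nearest to EHF were SGCZ and CDH17, to KLF5 SERPINA6 and EGLN3, to GRHL1 IL18R1 and SPINT2, and to OVOL2 GLP2R and TTC39B. With 4 libraries in 2 groups, this measure mostly reflects the size of the change, and the added 0.5 compresses it for low genes: SGCZ had 0 counts in TD and was at least 73.5-fold lower, while EHF was 10.1-fold lower by counts.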

How the data were processed

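RNA of 2 TD and 2 A549 libraries was extracted with Trizol, selected for poly(A) and read as paired 75-base reads from stranded libraries, per the labels' protocols. The authors deposited raw counts per gene. FastQC 0.11.8, STAR 2.7.1a, HTSeq 0.11.2 and the build hg19 (also called GRCh37) are listed per the submitters' processing notes. Annotation release, strand setting and read filters were not given in the sources used here. Lines for reads outside genes (6.12% to 7.79%), in several genes (2.34% to 2.56%) or with several alignments (8.08% to 9.22%) stayed out of library sizes and tests.

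Symbols came from gene identifiers (52338 of 57820 matched), and gene types, lengths and order from GENCODE 29, which is on GRCh38; lengths are the union of a gene's exons. Main test: edgeR 4.0.16 in R 4.3.3, quasi-likelihood, TMM scaling, default filter with a minimum count of 10, Benjamini-Hochberg adjustment, called at 0.05. The SE is the fitted change over the square root of its F statistic. A run of the test on simulated counts gave every gene the same spread, so it is no check of the calls in these data. Count ratios have 95% exact binomial intervals, and 3 counts stand for the limit of a count of 0; both cover counting error only. No pair of libraries was identical.

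Members, lists and tests were chosen with earlier results of these data known. Named genes were the members, the remaining grainyhead, OVO-like and antisense genes, ZEB1, ZEB2, SNAI1, SNAI2, CDH1 and ESRP1, up to 3 called genes with the largest change in each direction per list, and the 2 nearest genes by pattern per tested member; others were chosen after their values were seen. Alternatives were other scalings, filters and tests (DESeq2 1.42.0, limma-voom 3.58.1), a replicate block, thinning, leaving out each library and leaving out pseudogenes. Leaving out pseudogenes together with an A549 library was added after seeing the data. Some genes of the lists are counted in them and not reported here by name.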

Additional observations from a re-analysis of the deposited data

How the results depend on the processing

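Over 16 alternatives, the fitted log2 change stayed below 0 for each tested member: -7.95 to -7.43 for ELF3, -3.47 to -3.26 for EHF, -2.54 to -2.33 for KLF5, -2.50 to -2.11 for GRHL1 and -8.88 to -5.55 for OVOL2, the ends of each range coming from fits without a library. All calls of members held, except OVOL2 without A549 replicate 2 (log2 change -6.45, adjusted p = 0.0518), so leaving out a library gave 4 to 5 members lower and 0 higher. GRHL1 was close to the threshold without A549 replicate 1 (adjusted p = 0.0489). Without an A549 library the spread rests on the TD pair. Its common coefficient of variation was 34.1% and 34.0%, against 20.1% with all libraries. With pseudogenes left out as well it was 8.79% and 8.64%, and the calls of OVOL2 and GRHL1 held. So did every other call named here as lost without an A549 library, except that of UBP1. Leaving out a library gave 2236 to 6140 genes lower and 2114 to 5329 higher, against 3809 and 3833. It gave 1 to 3 other ETS genes lower, 1 to 2 other grainyhead and CP2 genes lower and 0 to 1 higher, 1 to 4 other Kruppel-like factors lower, and 1 to 2 genes lower in the mesenchymal list. The grainyhead and CP2 list had 1 faller with a filter of 1 CPM in 2 libraries, since GRHL3 was then not tested, and 0 risers with library totals, with the replicate block and with pseudogenes and either A549 library left out. With the replicate block, 5 members were lower, as without it. Same-numbered libraries of the groups deviated with a correlation of -0.09 across 17785 genes. With 2 libraries per group this cannot show or exclude a pairing, and the main test used none. The block also ended the calls of CFL1, a neighbour of OVOL1 (adjusted p = 0.0688 by edgeR), ETV7 (0.0636), PRSS8 (0.0883) and UBP1 (0.0566). Of 1082 single gene values under an alternative, 1040 kept their side of the threshold, 39 lost the call and 3 gained it, with 0 reversed. GRHL2 and OVOL1 had at most 2 counts in any library, and depth limits what can be said of them in both lines. The cause of the lost calls was not tested beyond these settings.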
